A study of Mus musculus with 4 samples.

Results

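The endothelium of irradiated mouse hindlimb muscle was examined 24 hours after the last X-ray fraction, with single-cell RNA sequencing. Endothelial cells were taken as barcodes with at least 200 genes, at least 500 unique molecular identifiers (UMIs) and at most 20% mitochondrial UMIs. They were selected on 7 measured genes: at least 3 summed UMIs of Pecam1, Cdh5, Egfl7 and Cldn5, and 0 UMIs of Ptprc, Pdgfra and Pax7, so that the levels of these 7 genes are no finding. The rule gave 1541 barcodes in the irradiated library (IR) and 469 in the control library (CON), together 2010. In these libraries 3875 barcodes passed the depth and mitochondrial limits, and the rule took 60.7% of those in IR and 35.1% in CON. All 4 libraries of the series held 7086 deposited barcodes, of which 6544 passed these limits. IR was hindlimb of male C57Bl/6J mice that had received 3 fractions of 8.2 Gy to that limb at 5 weeks of age, with the rest of the body shielded by lead. CON was the opposite, shielded hindlimb, which shared the genotype, sex and age of IR and belonged to irradiated animals. Suspensions of 3 limbs were pooled in each group before at least 10000 live mononucleated cells were sorted. There was 1 library per group, so animals cannot be told apart, no difference was tested, and intervals in parentheses are exact 95% intervals that cover counting error only. A second pair of libraries, taken 56 days after irradiation, was set beside the first.

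Endothelial cells line every vessel of the muscle, and most of them belong to the capillaries that supply the fibres with oxygen and fatty acids. Ionising radiation breaks DNA, and the damage stabilises the transcription factor p53, which is held low by the ubiquitin ligase Mdm2. Stable p53 switches on genes that halt the cell cycle, repair or protect the cell, or start apoptosis, and several of its targets, Mdm2 among them, feed back on p53 itself. Irradiated endothelium is known for loss of capillaries, altered clotting and altered adhesion of leukocytes.

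The endothelial identity of the barcodes was clear from markers that the rule did not use. All 11 genes of a second endothelial list, such as Flt1, Tie1 and Erg, were found in both libraries, at a summed level of 7627 counts per 1000000 UMIs (CPM) in IR and 8084 CPM in CON, with a median log2 ratio of IR over CON of -0.33 and no gene past 2-fold. The IR barcodes held 6000390 UMIs with a median of 3244 UMIs and 1700 genes per barcode, and the CON barcodes held 1880717 UMIs with a median of 3587 UMIs and 1717 genes. At the edge of the rule, 67 IR and 18 CON barcodes had exactly 3 marker UMIs, with Cdkn1a at 2046 CPM in IR and 214 CPM in CON. Just outside it, 56 IR and 29 CON barcodes had 2 marker UMIs and otherwise met the rule, with Cdkn1a at 1689 CPM in IR and 272 CPM in CON. Another 25 IR and 20 CON barcodes had enough marker UMIs but were left out for a UMI of Ptprc, Pdgfra or Pax7. The 2 libraries shared 2 barcode sequences, and no endothelial barcode was shared between them. RNA of other cells was present in the sums. Pericyte and smooth muscle markers (10 genes, all found in both libraries) summed to 1610 CPM in IR and 1404 CPM in CON, and myofibre markers (10 genes, all found in both) to 648 CPM in IR and 368 CPM in CON. Fibroblast markers (7 of 9 genes found in each library) summed to 797 CPM in IR and 65.9 CPM in CON, and in IR 92.8% of these UMIs lay in 10 barcodes. Schwann cell markers summed to 175 CPM in IR and 6.91 CPM in CON, with 96.0% of the IR UMIs in 10 barcodes. Haemoglobin and other erythroid markers ran the other way, at 1506 CPM in IR and 6036 CPM in CON. Lymphatic markers reached 84.7 CPM in IR and 47.9 CPM in CON. Satellite cell, macrophage, neutrophil and lymphocyte markers stayed at or under 24.5 CPM in both libraries. Barcodes with at least 5 UMIs of fibroblast, Schwann cell or leukocyte markers or at least 20 haemoglobin UMIs are called mixed. There were 46 of them in IR (2.99%) and 12 in CON (2.56%), and some values are also given without them.

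Across the genome, 8693 genes were measured, that is, had a mean level over both libraries of at least 10 CPM, which is about 60.0 UMIs in IR and 18.8 in CON. In IR, 291 genes reached 2-fold higher (3.35% of those measured), and 60 reached 2-fold lower (0.69%). Over all of them the log2 ratio had a median of 0.06. The ratio interval lay wholly above 1 for 21.7% of measured genes and wholly under 1 for 14.3%. Intervals are narrower for abundant genes, and among the 1739 genes of highest mean level (105.7 CPM or more) 35.4% had an interval under 1. Without the mixed barcodes 251 genes were 2-fold higher or more and 60 were 2-fold lower or more, of which 221 and 49 were so with all barcodes as well. Genes were ordered by how far the nearer end of their ratio interval lay from 1, and the 15 furthest higher were of 2 kinds. In 8 of them (Postn, Col22a1, Kera, Tnmd, Thbs4, Col11a1, Timp1 and Ogn), which encode proteins of tendon and matrix or their regulators, nearly all UMIs came from a few mixed barcodes. Postn, an extracellular matrix protein of fibroblasts, had 514 UMIs in IR and 0 in CON, but 44.4% of the IR UMIs were in 1 barcode and 7 UMIs were left without the mixed barcodes. Col22a1, Kera and Col11a1 had 181, 170 and 135 UMIs in IR and 0 in CON, and 0 in both libraries without the mixed barcodes. Summed over these genes with Fmod, a tendon proteoglycan, in place of Timp1, 97.2% of the 1902 IR UMIs lay in 10 barcodes, and CON had 9 UMIs. At 56 days the order was the other way round, with 25 UMIs in IR and 763 in CON. The remaining 7, Gdf15, Ckap2, Ltc4s, Cox6b2, Nav2, Zfp365 and Ddias, were carried by between 120 and 725 IR barcodes each. Without the mixed barcodes, 15 of the 30 genes furthest higher were members of the p53 target lists. With all barcodes, 48 of the 8693 measured genes were members, and 5 of the 48 were under 10 CPM in CON. The lists were chosen with earlier results of these data known, so this overlap is a description and no independent support. Of the 15 genes furthest lower, 14 were also among the 15 furthest lower without the mixed barcodes.

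**Figure D1:**
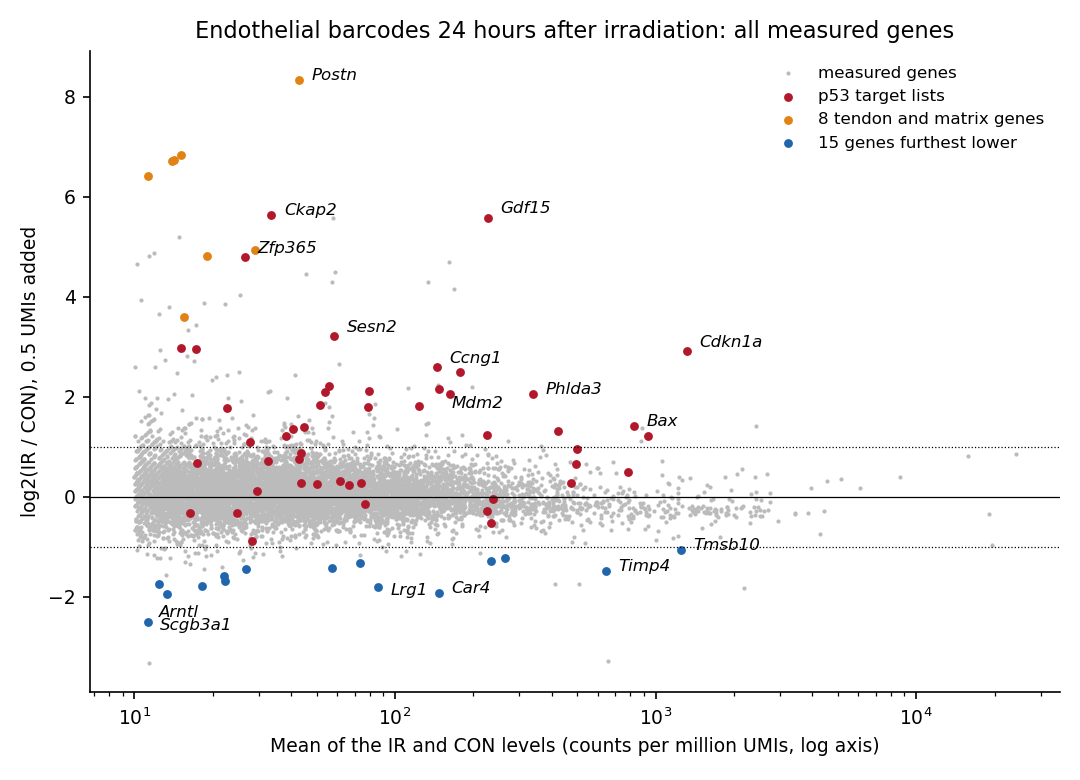
Each grey point is one of the 8693 measured genes, with its mean level in CPM on a log axis and its log2 ratio of IR over CON (0.5 UMIs added) on the other axis, and dotted lines mark 2-fold. Most p53 targets lie above the cloud, with Cdkn1a the most abundant of those labelled. The 8 tendon and matrix genes, marked with Fmod in place of Timp1, come from few barcodes.

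Of the genes that arrest the cycle or feed back on p53, 15 of 16 were measured and 10 were at least 2-fold higher in IR. None was 2-fold lower, and the median log2 ratio was 2.06. A member seen mainly in IR passes the filter through IR alone, which was so for Ckap2 and Gtse1. Among the 13 members at or above 10 CPM in CON, 8 were at least 2-fold higher, with a median of 1.80. Cdkn1a, which encodes the cyclin-dependent kinase inhibitor p21, had 2322 CPM in IR and 308 CPM in CON, a ratio of 7.54 (6.94 to 8.21), and was found in 1403 of the 1541 IR barcodes and 191 of the 469 CON barcodes. Ccng1, which encodes cyclin G1, a partner in Mdm2 regulation, had 248 CPM in IR and 40.9 CPM in CON (ratio 6.07, 4.83 to 7.73). Mdm2 had 241 CPM in IR and 54.2 CPM in CON (4.45, 3.64 to 5.50). Its relative Mdm4, which also restrains p53, had 192 CPM in IR and 54.8 CPM in CON (3.51, 2.87 to 4.34). Ckap2, a microtubule-associated protein of dividing cells, had 396 UMIs in 296 IR barcodes and 2 UMIs in CON, and Gtse1, which binds p53, had 162 UMIs in IR and 6 in CON. Trp53 itself, at 80.7 CPM in IR and 67.0 CPM in CON, had an interval that reached 1 (1.20, 0.99 to 1.48). The ubiquitin ligase Rchy1 was likewise near 1 (1.18, 0.96 to 1.47).

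The promoters of these genes are shown because p53 acts through a defined DNA element. The RefSeq promoter windows (GRCm38.p6, 250 bases before to 50 after a gene's start) were searched on both strands for the p53 response element consensus, as a pair of decamers with no spacer and with the core C and G of each decamer kept. At most 1 mismatch was found in 4 of the 41 measured p53 targets with a window (9.76%) and in 4 of 213 genes at least 2-fold higher (1.88%). These are the same 4 genes, Cdkn1a, Ccng1, Gtse1 and Rps27l, so the 2 shares are not separate. The element was found in 6 of 6950 measured genes (0.0863%) and in 22 of all 27025 genes (0.0814%). With up to 2 mismatches the shares were, in the same order, 14.6%, 3.76%, 0.475% and 0.392%. The matches are descriptions of letters and not shown to be sites. Capitals mark the element, and each sequence reads 5′ to 3′ on the gene's strand. The first 4 have 1 mismatch and the last 2 have 2. They come from chr17:29090888-29090978 (Cdkn1a, plus strand), chr11:40755422-40755521 (Ccng1, minus), chr15:85859940-85859969 (Gtse1, plus, at the gene's start), chr9:66946256-66946355 (Rps27l, plus), chr8:22185963-22186062 (Ckap2, minus) and chr10:67912666-67912765 (Zfp365, minus).
Cdkn1a: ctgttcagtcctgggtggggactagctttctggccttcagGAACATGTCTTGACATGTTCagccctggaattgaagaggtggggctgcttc
Ccng1: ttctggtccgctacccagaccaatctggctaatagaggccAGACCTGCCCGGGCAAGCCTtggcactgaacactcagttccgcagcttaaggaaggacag
Gtse1: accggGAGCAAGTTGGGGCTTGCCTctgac
Rps27l: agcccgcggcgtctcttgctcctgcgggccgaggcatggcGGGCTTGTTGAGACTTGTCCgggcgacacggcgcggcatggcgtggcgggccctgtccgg
Ckap2: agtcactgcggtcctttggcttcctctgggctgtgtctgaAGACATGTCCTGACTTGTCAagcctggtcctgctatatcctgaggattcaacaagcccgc
Zfp365: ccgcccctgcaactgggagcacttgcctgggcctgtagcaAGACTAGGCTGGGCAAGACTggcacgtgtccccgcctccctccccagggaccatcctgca

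Targets that promote apoptosis were higher as well. Of 14 members 9 were measured, all of them at or above 10 CPM in CON, and 5 were at least 2-fold higher, with a median log2 ratio of 1.34. Eda2r, a member of the tumour necrosis factor receptor family, had 129 CPM in IR and 29.8 CPM in CON (4.34, 3.31 to 5.80). Apaf1, the scaffold of the apoptosome, had 80.5 CPM in IR and 22.3 CPM in CON (3.60, 2.63 to 5.07). Aen, a nuclease, had 122 CPM in IR and 35.1 CPM in CON (3.49, 2.71 to 4.56). Bax, which opens the mitochondrial outer membrane, had 1204 CPM in IR and 450 CPM in CON (2.68, 2.49 to 2.88) and was found in 1356 IR and 304 CON barcodes. Its activator Bbc3, known as PUMA, was 2.57-fold higher (1.87 to 3.61). The death receptor Fas was 1.25-fold higher (1.00 to 1.56). Trp53i11 ran the other way, at 191 CPM in IR and 275 CPM in CON (0.693, 0.624 to 0.770). The unmeasured Pmaip1 (NOXA) had 64 UMIs in IR and 1 in CON, and Pidd1 had 47 in IR and 0 in CON.

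Of 20 p53 targets in metabolism and repair 14 were measured and 8 were at least 2-fold higher, with a median of 1.21. Sesn2, a stress-induced inhibitor of the growth kinase complex mTORC1, had 106 CPM in IR and 11.2 CPM in CON (9.46, 6.14 to 15.4), whereas its relatives Sesn3 and Sesn1 were 1.62-fold (1.05 to 2.59) and 1.09-fold (0.798 to 1.51) higher. Dcxr, a carbonyl and xylulose reductase, had 302 CPM in IR and 53.2 CPM in CON (5.68, 4.64 to 7.02). Polk, a translesion DNA polymerase, had 92.0 CPM in IR and 19.7 CPM in CON (4.68, 3.35 to 6.71), and Rev3l, the catalytic subunit of another translesion polymerase, was 2.34-fold higher (1.70 to 3.30). Ephx1, an epoxide hydrolase, had 602 CPM in IR and 241 CPM in CON (2.50, 2.27 to 2.76), and Rps27l, a ribosomal protein paralogue, had 1307 CPM in IR and 564 CPM in CON (2.32, 2.17 to 2.47). Gadd45a, a classical damage-induced gene, was lower with 120 UMIs in IR and 69 in CON (0.545, 0.402 to 0.744). The nucleotide excision repair gene Xpc had an interval that spanned 1 (0.796, 0.573 to 1.12).

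Secreted and surface targets were less uniform. Of 15 members 10 were measured and 4 were at least 2-fold higher, with a median of 0.61. Only 7 of the 10 were at or above 10 CPM in CON, and 1 of those, Epha2, was 2-fold higher. Gdf15, a circulating stress cytokine, had 2672 UMIs in 725 IR barcodes and 17 UMIs in 4 CON barcodes (49.3, 30.7 to 84.7), and 76.5% of the CON UMIs lay in 1 barcode. Without its top barcode in each library Gdf15 had 2601 UMIs in IR and 4 in CON. Zfp365, on this list but by name a zinc finger protein and not shown to be secreted or on the surface, had 309 UMIs in IR and 3 in CON. Sulf2, an extracellular sulfatase, had 184 in IR and 7 in CON (8.24, 3.92 to 20.8). Epha2, an ephrin receptor, was 2.65-fold higher (1.95 to 3.68). Kitl, the ligand of the stem cell receptor Kit, was 1.40-fold higher (1.31 to 1.49), while Notch1 was at 0.973 (0.875 to 1.08) and Pltp, the phospholipid transfer protein, at 0.816 (0.733 to 0.910). Among long non-coding and imprinted transcripts, 4 of 13 measured members were at least 2-fold higher (median 0.65), against 3.35% of all measured genes. They were Pvt1 (121 UMIs in IR, 2 in CON), Snhg15 (149 in IR, 8 in CON), Trp53cor1 (106 in IR, 8 in CON), the last known as lincRNA-p21, and Neat1, at 261 CPM in IR and 128 CPM in CON (2.05, 1.79 to 2.36), and at 1.96 without the mixed barcodes. Of the 13, 10 were at or above 10 CPM in CON, and 1 of those was 2-fold higher. The imprinted cell cycle inhibitor Cdkn1c was lower, at 354 CPM in IR and 618 CPM in CON (0.574, 0.534 to 0.617), in contrast to Cdkn1a.

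**Figure D2:**
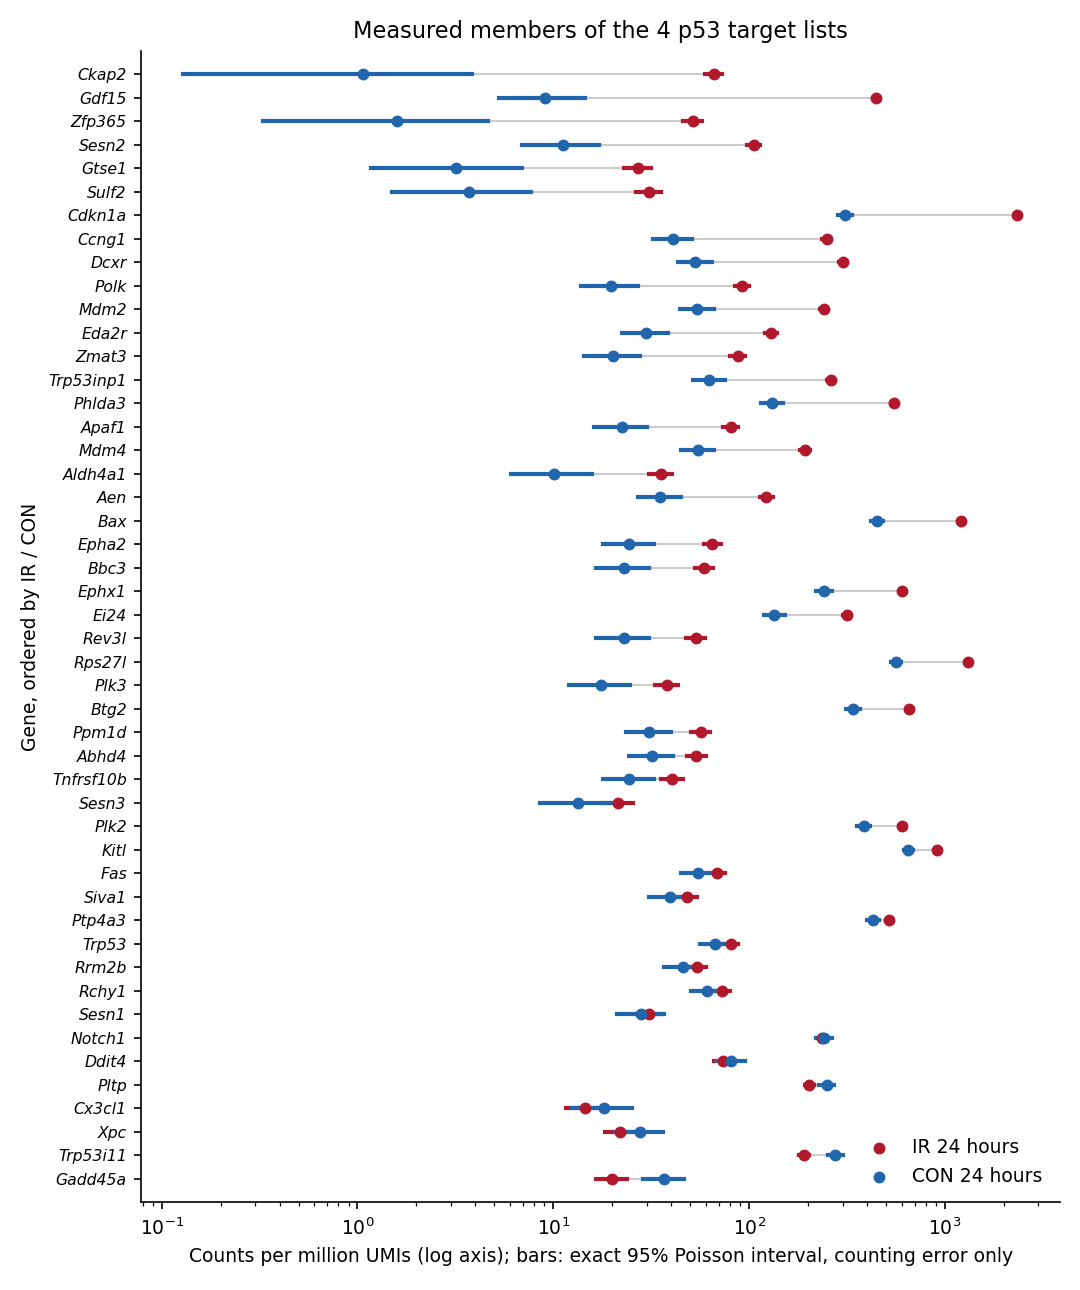
Levels of the 48 measured members of the 4 p53 target lists in IR and CON endothelial barcodes, in CPM on a log axis, with exact 95% Poisson intervals for counting error, in order of the ratio of IR over CON from the top. IR lies right of CON for most members, by 7.54-fold for Cdkn1a, and left of it at the bottom, where Gadd45a had a ratio of 0.545.

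Per barcode, the whole distribution of p53 target UMIs was shifted in IR, and most IR barcodes held Cdkn1a. To compare barcodes of different depth, each was thinned to 1000 UMIs, which left out 179 IR and 47 CON barcodes. Cdkn1a was then found in 80.9% of IR barcodes (78.7 to 83.0) and in 19.9% of CON barcodes (16.2 to 24.0), with medians of 2 UMIs in IR and 0 in CON. Unthinned, the shares were 91.0% in IR and 40.7% in CON. In B cell barcodes (at least 2 UMIs of Cd79a and Cd79b and none of the 4 endothelial markers), which served as the background, Cdkn1a was found in 0 of 55 thinned IR barcodes and 0 of 170 thinned CON barcodes, which at this depth allows a share of barcodes with a UMI of up to 5.45% in IR and 1.76% in CON (3 barcodes of the total) and sets no limit on expressing cells. Unthinned B cell barcodes had median depths of 2998 UMIs in IR and 3107 UMIs in CON, and 4 of 57 held the gene in IR and 6 of 175 in CON. The 64 other p53 targets summed to a median of 10 UMIs per thinned IR barcode (5th to 95th percentile 4 to 18) and 5 UMIs per CON barcode (1.05 to 10). Of the IR barcodes 49.0% (46.3 to 51.7) lay above the 95th percentile of CON, against 4.98% of CON barcodes (3.11 to 7.51). The tenth of IR barcodes with the highest sums held 17.5% of these UMIs, against 20.4% in CON. Gdf15 had a lower level, with a mean of 0.434 UMIs per thinned IR barcode against 2.28 for Cdkn1a, and was found in fewer barcodes. Its thinned shares were 27.0% of IR (24.7 to 29.5) and 0.237% of CON (0.0060 to 1.31), and its unthinned shares 47.0% and 0.853%. The part of its level in these shares was not tested. Gdf15 was in 0 of 55 thinned B cell barcodes of IR and 0 of 170 of CON. Phlda3, which encodes a repressor of the kinase Akt, was in 40.5% of IR and 10.9% of CON barcodes, and again in no B cell barcode.

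**Figure D3:**
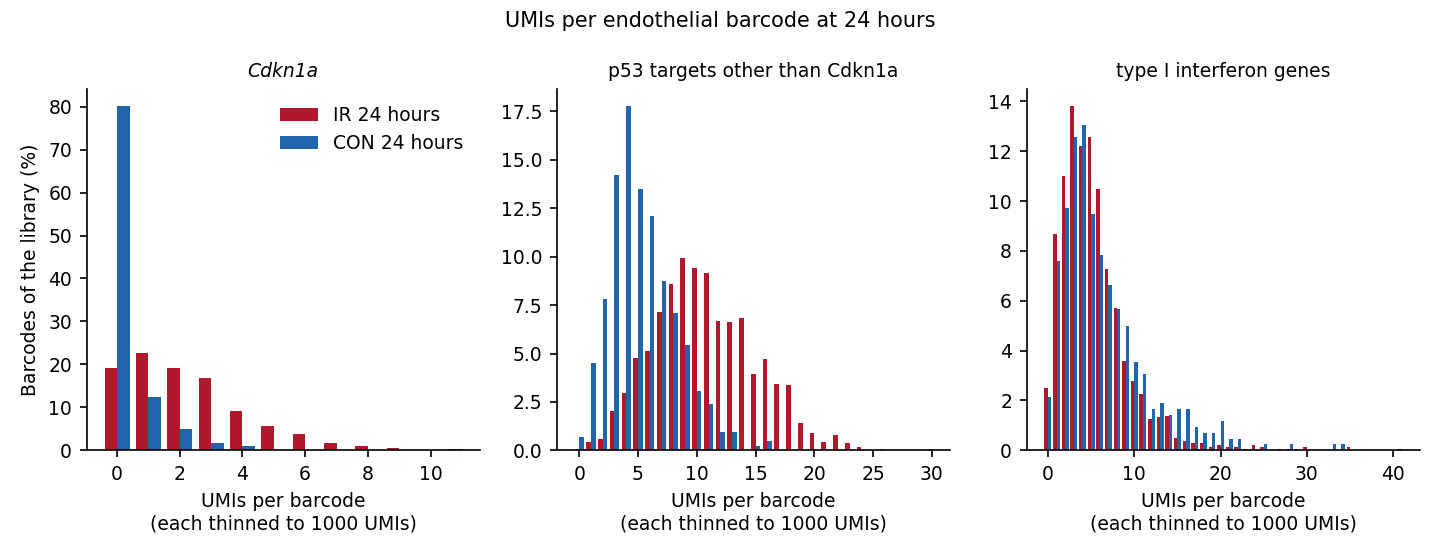
Share of endothelial barcodes (1362 in IR, 422 in CON, each thinned to 1000 UMIs) by the number of UMIs of Cdkn1a, of the other 64 p53 targets and of 35 type I interferon genes. Cdkn1a and the other p53 targets are shifted to the right in IR, with medians of 2 against 0 and 10 against 5 UMIs, while the interferon distributions overlap, with medians of 5 UMIs in both and upper quartiles of 7 in IR and 9 in CON.

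Cdkn1a was also higher in the Pdgfra-positive stromal barcodes of the same libraries (40 in IR, 25 in CON, with no endothelial marker), at 1454 CPM in IR and 101 CPM in CON (14.4, 9.27 to 23.8). There Gdf15 had 2 UMIs in IR and 0 in CON, and Ltc4s had 32 in IR and 0 in CON. Among the B cell barcodes Cdkn1a had 4 UMIs in IR and 6 in CON, and Mdm2, at 31.6 CPM in IR and 58.7 CPM in CON, had an interval that spanned 1 (0.538, 0.185 to 1.29). Differences between these cell sets and the endothelium were not tested.

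Several of the genes furthest higher were not on the p53 lists. Ltc4s, leukotriene C4 synthase, had 1529 UMIs in 522 IR barcodes and 24 UMIs in 17 CON barcodes (19.97, 13.4 to 31.3). Cox6b2, a testis isoform of a cytochrome oxidase subunit, had 525 UMIs in IR and 7 in CON (23.5, 11.3 to 58.8). Nav2, a neuron navigator protein, had 656 in IR and 10 in CON (20.6, 11.1 to 43.1). Ddias, known as an anti-apoptotic factor induced by DNA damage, had 139 in IR and 1 in CON (43.6, 7.69 to 1733). Outside the 15, the list without mixed barcodes added Ces2e, a carboxylesterase (288 in IR, 5 in CON), Nexmif (252 in IR, 5 in CON, and 233 in IR, 2 in CON without those barcodes), Prrg4 (210 in IR, 4 in CON), Celf5, an RNA-binding protein (154 in IR, 3 in CON), Mybl1, a Myb family transcription factor (168 in IR, 7 in CON), and Clca2, described in human cells as a p53-inducible gene (420 in IR, 24 in CON). Exoc4, an exocyst subunit, was abundant, at 324 CPM in IR and 70.7 CPM in CON (4.58, 3.84 to 5.50), and was 2.65-fold higher in B cell barcodes too (1.27 to 5.43).

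Most clock genes were higher, and Arntl was lower. The circadian clock is a loop in which Arntl (BMAL1) and Clock drive the Per and Cry repressors, the Nr1d nuclear receptors, which repress Arntl, and the transcription factors Dbp and Tef. Of 19 members 12 were measured. Of these, 5 reached 2-fold higher and 1 reached 2-fold lower (median log2 ratio 0.94), against 3.35% and 0.69% of all measured genes. Dbp had 241 CPM in IR and 51.0 CPM in CON (4.73, 3.84 to 5.87). Tef was 3.66-fold higher (2.85 to 4.75), Per3 3.06-fold (2.31 to 4.14), Nr1d2 2.33-fold (1.88 to 2.90) and Bhlhe40 2.29-fold (1.77 to 3.01), and Nr1d1 was just under the limit (1.97, 1.63 to 2.41). Arntl alone was lower, with 33 UMIs in IR and 40 in CON, or 5.50 CPM in IR and 21.3 CPM in CON (0.259, 0.158 to 0.421), and Clock was near 1 (1.21, 1.01 to 1.47). Among unmeasured members Hlf had 113 UMIs in IR and 2 in CON, and Ciart 83 in IR and 5 in CON. In stromal barcodes Per3 had 22 UMIs in IR and 1 in CON, and Nr1d1 35 in IR and 5 in CON (3.42, 1.33 to 11.2). Intervals there spanned 1 for Dbp (2.25, 0.836 to 7.57), Tef (2.32, 0.772 to 9.39), Per1 (0.978, 0.304 to 3.65) and Arntl (0.706, 0.279 to 1.87). In B cell barcodes Dbp had 2 UMIs in IR and 12 in CON, too few to compare. The time of day at which each limb was taken is not given in the sources used here. At 56 days Dbp was 1.95-fold higher (1.15 to 3.34) and Per3 was at 0.834 (0.574 to 1.20). The E-box CACGTG, read by Arntl and Clock, was in the promoter window of 3 of 11 measured clock genes (27.3%). It was in 840 of 6950 measured genes (12.1%) and in 8.09% of all genes. Each site was counted once since it reads the same on both strands. The Tef window at chr15:81802506-81802591 (plus strand) is shown as the match with the highest ratio, with the E-box in capitals.
Tef: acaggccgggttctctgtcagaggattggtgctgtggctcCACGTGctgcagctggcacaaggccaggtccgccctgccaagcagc

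DNA repair genes outside the p53 lists were nearer to 1. Of 37 members 24 were measured and 5 were at least 2-fold higher (3.35% of all measured genes were), with a median log2 ratio of 0.28. Of the 21 at or above 10 CPM in CON, 3 were 2-fold higher. Ercc5, a nucleotide excision repair nuclease, had 64.3 CPM in IR and 26.1 CPM in CON (2.47, 1.83 to 3.40), and Rnf168, which ubiquitinates chromatin at breaks, was 2.19-fold higher (1.55 to 3.19). Trp53bp1, a break-repair scaffold, was 2.27-fold higher (1.48 to 3.64), and Prkdc, the DNA-dependent protein kinase, had 118 UMIs in IR and 17 in CON (2.18, 1.30 to 3.86). The kinase Atm was 1.74-fold higher (1.15 to 2.70), whereas Xrcc1, of single-strand break repair, was lower (0.619, 0.422 to 0.920), as was the checkpoint kinase Chek2 (0.817, 0.693 to 0.967).

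Genes of clotting and of vessel tone included a few large differences. Of 14 measured clotting genes 4 were at least 2-fold higher (median 0.18), against 3.35% of all measured genes. Of the 12 clotting genes at or above 10 CPM in CON, 2 were at least 2-fold higher. Gas6, a vitamin K-dependent ligand of the receptor Axl, had 1275 CPM in IR and 491 CPM in CON (2.60, 2.42 to 2.78). Its relative Pros1, protein S, had 221 CPM in IR and 97.8 CPM in CON (2.26, 1.94 to 2.65). In stromal barcodes Gas6 was 5.18-fold higher (3.74 to 7.36), and Pros1 had an interval that spanned 1 (1.50, 0.977 to 2.37). The difference between the cell sets was not tested. In the endothelium the urokinase gene Plau had 155 UMIs in IR and 16 in CON (3.04, 1.81 to 5.44). Serpine2, a thrombin and urokinase inhibitor, had 176 UMIs in IR, 29.5% of them in 1 barcode, and 5 in CON (11.03, 4.64 to 34.4), and without the mixed barcodes 81 in IR and 1 in CON (25.03, 4.37 to 1001). Von Willebrand factor, Vwf, was lower, at 166 CPM in IR and 209 CPM in CON (0.794, 0.706 to 0.894), and thrombomodulin, Thbd, had an interval that spanned 1 (1.06, 0.900 to 1.25). Among 23 measured genes of tone and shear 3 were at least 2-fold higher, Ltc4s, Ass1 (2.28, 1.65 to 3.23), which recycles arginine for nitric oxide synthesis, and Gucy1a1 (2.04, 1.47 to 2.90), a subunit of the nitric oxide receptor that pericytes also make, which was at 1.65 without the mixed barcodes. The part of pericyte RNA, at 1610 CPM of markers in IR and 1404 CPM in CON, was not tested. The flow sensor Piezo1 was 1.47-fold higher (1.25 to 1.73). Nitric oxide synthase, Nos3, was lower (0.821, 0.714 to 0.947), as were the prostaglandin synthase Ptgs1 (0.525, 0.415 to 0.666) and the flow-induced factor Klf2 (0.883, 0.836 to 0.933).

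Most genes of capillary identity were lower, and by interval those of lipid handling were more often lower than higher. All 18 capillary genes were measured, 15 had an interval wholly under 1, and 3 reached 2-fold lower (median log2 ratio -0.42). Of all measured genes 14.3% had an interval under 1, and of those of highest level 35.4%. Car4, a carbonic anhydrase on the capillary surface, had 61.5 CPM in IR and 233 CPM in CON (0.264, 0.229 to 0.304). Timp4, a metalloproteinase inhibitor, had 337 CPM in IR and 951 CPM in CON (0.354, 0.332 to 0.378), and Rbp7, a retinol-binding protein, 135 CPM in IR and 331 CPM in CON (0.408, 0.367 to 0.453). Rgcc, a regulator of the cell cycle, had 710.0 CPM in IR and 1298 CPM in CON (0.547, 0.520 to 0.575). Meox2, a transcription factor of muscle endothelium that supports fatty acid uptake, ran the other way (1.44, 1.31 to 1.59). Per thinned barcode the 18 genes summed to medians of 14 UMIs in IR and 19 UMIs in CON. Of 21 measured genes of fatty acid handling 13 had an interval under 1 and 4 above it. The shares were 14.3% and 21.7% of all measured genes, and 35.4% and 28.6% of those of highest level. Of the 21, 1 was at least 2-fold lower and 2 were at least 2-fold higher (median -0.37). Among the 19 at or above 10 CPM in CON, 1 was 2-fold lower and 1 was 2-fold higher. Fabp4, the fatty acid carrier, took 13198 CPM in IR and 25792 CPM in CON (0.512, 0.506 to 0.518) and was found in 1522 IR and 467 CON barcodes. Its inducer Pparg had 240 UMIs in IR and 148 in CON (0.508, 0.412 to 0.628). Gpihbp1, which anchors lipoprotein lipase in capillaries, was at 0.681 (0.655 to 0.709). Lpin1, a phosphatidate phosphatase, and Slc27a3, a fatty acid transporter family member, were higher, at 3.02-fold (1.83 to 5.32) and 2.71-fold (1.94 to 3.90). Among other genes furthest lower, the water and glycerol channel Aqp7 had 157 CPM in IR and 370.1 CPM in CON (0.424, 0.384 to 0.469). The retinol-oxidising dehydrogenase Adh1 was at 0.369 (0.297 to 0.460), Hacd1, an enzyme of very long fatty acid synthesis, at 0.290 (0.192 to 0.436), and Scgb3a1, a secretoglobin, had 20 UMIs in IR and 36 in CON (0.174, 0.0955 to 0.309). Tmsb10, which binds actin monomers, had 810.1 CPM in IR and 1689.8 CPM in CON (0.479, 0.458 to 0.501; 0.5002 without the mixed barcodes), and it was lower in B cell barcodes as well (0.628, 0.574 to 0.687).

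Venous genes included 5 of 19 measured members at least 2-fold lower (median -0.44), and none was 2-fold higher. Over all measured genes 0.69% were 2-fold lower and 3.35% were 2-fold higher. Lrg1, a secreted glycoprotein, had 38.5 CPM in IR and 134 CPM in CON (0.287, 0.239 to 0.345). Ackr1, the chemokine receptor of venules, had 66 UMIs in 25 IR barcodes and 62 UMIs in 14 CON barcodes (0.334, 0.232 to 0.480). The leukocyte adhesion molecule Vcam1 was at 0.364 (0.264 to 0.504) and Selp, P-selectin, at 0.460 (0.340 to 0.625), while Icam1, another adhesion molecule, was higher (1.45, 1.18 to 1.81). Since these genes mark few barcodes, fewer venous cells and less RNA per cell cannot be told apart in the sums. Over thinned barcodes Lrg1 had a mean of 0.0419 UMIs in IR and 0.0758 in CON, and was found in 3.08% and 3.55%. In venous barcodes, as defined below, Vcam1 was at 0.371 (0.209 to 0.666). Vcam1 was at 0.335 (0.210 to 0.532) in arterial and 0.528 (0.223 to 1.35) in other barcodes. In CON, the top barcode of each gene held 24.2% of Lrg1 and 29.7% of Vcam1 UMIs. The part of cell number in these values was not tested. Of 24 measured arterial genes 1 was at least 2-fold lower, Gkn3 (0.458, 0.331 to 0.638), and the median was -0.23. The Gkn3 value rested on 1 barcode, which held 83.1% of its 65 CON UMIs, and without its top barcode in each library Gkn3 had 73 UMIs in IR and 11 in CON (2.08, 1.10 to 4.35). The chemokine Cxcl12 was at 0.644 (0.618 to 0.671). Mgp, a matrix protein that inhibits calcification, was 1.64-fold higher with all barcodes and at 0.592 without the mixed ones (0.518 to 0.677).

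**Figure D4:**
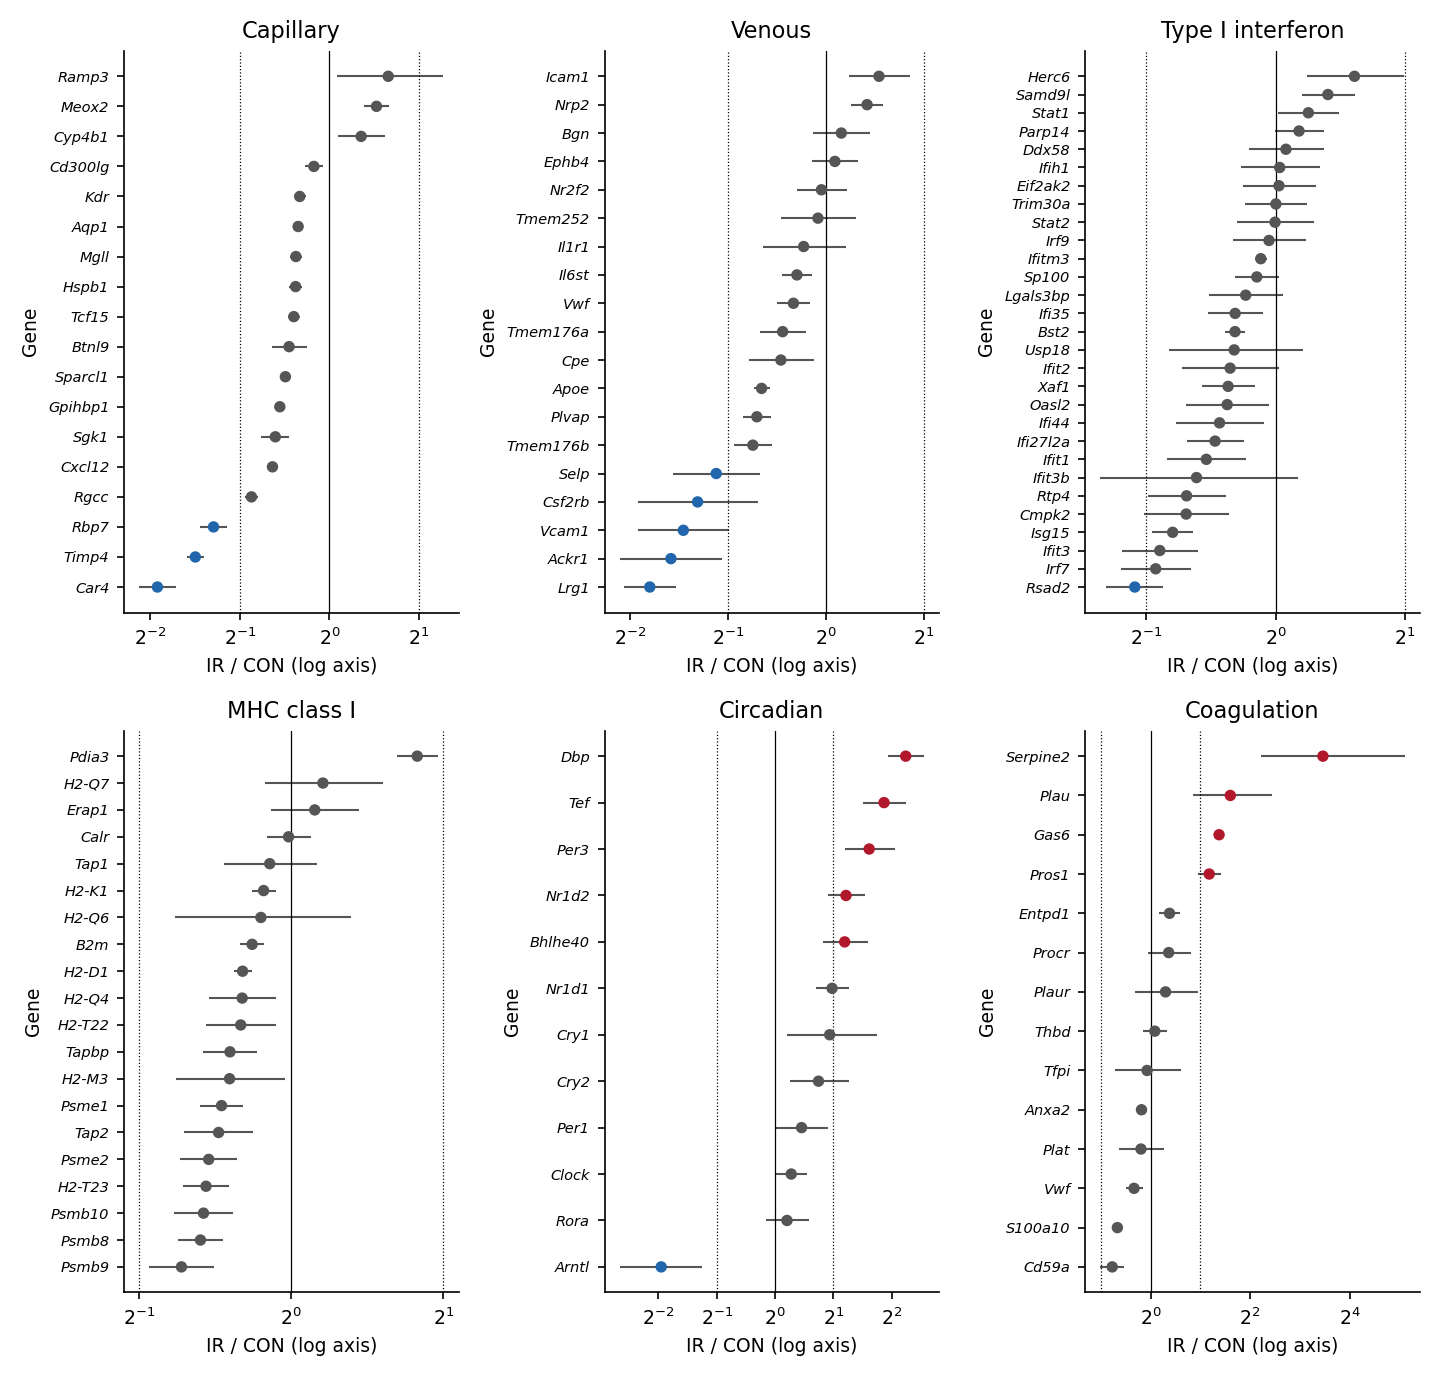
Ratio of IR over CON with its exact 95% interval for every measured member of 6 gene lists, on log axes whose ranges differ between panels. Dotted lines mark 2-fold, and red and blue points are genes at least 2-fold higher and lower. Most capillary and MHC class I genes lie left of 1, and in the circadian panel Arntl lies left of all others.

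Many interferon and antigen presentation genes were lower by less than 2-fold. Of 29 measured type I interferon genes 14 had an interval wholly under 1 and 3 wholly above, and 1 was at least 2-fold lower (median -0.31). The shares under and above 1 were 14.3% and 21.7% of all measured genes, and 35.4% and 28.6% of those of highest level. Rsad2 (viperin) had 70.7 CPM in IR and 150 CPM in CON (0.470, 0.403 to 0.548). Irf7, the factor that amplifies the response, had 50.0 CPM in IR and 95.2 CPM in CON (0.525, 0.435 to 0.636), and the ubiquitin-like Isg15 had 153 CPM in IR and 266 CPM in CON (0.575, 0.516 to 0.643). Herc6, a ligase for Isg15 in mouse, was higher (1.53, 1.19 to 1.99), and the sensors Ifih1 and Ddx58 and the factor Stat2 had intervals that spanned 1. Per thinned barcode, the 35 genes of the list had a median of 5 UMIs in both libraries, an upper quartile of 7 UMIs in IR and 9 UMIs in CON, a 95th percentile of 13 UMIs in IR and 17 UMIs in CON, and a highest value of 41 UMIs in IR and 34 UMIs in CON. Of 17 measured interferon gamma genes 1, the GTPase Gbp6, was at least 2-fold lower (0.449), and the median was -0.37. Cxcl9, a T cell attractant, had 80.7 CPM in IR and 142 CPM in CON (0.568, 0.488 to 0.662). None of 20 measured MHC class I genes passed 2-fold, but 14 had an interval under 1 (median -0.33), against 14.3% of all measured genes and 35.4% of those of highest level. The immunoproteasome subunits Psmb9, Psmb8 and Psmb10 were at 0.606, 0.661 and 0.670. Pdia3, a chaperone of the peptide loading complex, was higher (1.78, 1.62 to 1.95). Class I genes are near copies of each other, so reads may be split between them. The 7 MHC class II genes were all under the filter. The interferon response element was taken as GAAA, any 2 bases (NN) and GAAA again, and searched on both strands. It was in the promoter window of 12 of 24 measured type I members (50.0%), of 3.76% of measured genes and of 3.99% of all genes. The windows of the 3 members with the lowest ratios among these 12 are shown for Isg15 (chr4:156200847-156200936, minus strand), Rsad2 (chr12:26456523-26456612, minus) and Ifit3 (chr19:34583333-34583422, plus). Capitals mark a single match of the element or its reverse complement in each. Further matches in the Isg15 and Ifit3 sequences are left in lower case.
Isg15: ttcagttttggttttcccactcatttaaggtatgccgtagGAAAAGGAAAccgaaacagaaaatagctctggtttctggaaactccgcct
Rsad2: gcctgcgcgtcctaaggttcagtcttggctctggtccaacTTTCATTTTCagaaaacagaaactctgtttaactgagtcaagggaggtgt
Ifit3: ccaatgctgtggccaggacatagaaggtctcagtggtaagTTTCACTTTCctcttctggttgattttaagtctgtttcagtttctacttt

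In signalling and structural lists few genes passed 2-fold, as was so over all measured genes (3.35% higher and 0.69% lower). Among 21 measured tip cell and sprouting genes 1 was at least 2-fold higher (median -0.11). It was Apln, the ligand of the apelin receptor, at 61.8 CPM in IR and 15.4 CPM in CON (4.01, 2.75 to 6.07), and its receptor Aplnr was lower (0.676). None of 12 VEGF and Tie, 16 Notch, 26 BMP and TGF-beta, 22 junction and caveola, 29 endothelial transcription factor, 22 antioxidant, 17 heat shock, 20 Bcl2 family, 20 glycolysis and hypoxia or 14 unfolded protein genes was 2-fold different. Their medians lay between -0.17 and 0.16. Within them, the VEGF receptor Kdr and the angiopoietin receptor Tek were lower, at 0.795 (0.759 to 0.833) and 0.762 (0.692 to 0.841), and the latent TGF-beta binding protein Ltbp4 was at 0.526. The receptor Acvr2a and the mediator Smad4 were higher, at 1.94-fold (1.55 to 2.44) and 1.63-fold (1.38 to 1.93). The fenestral protein Plvap was at 0.613. The survival factors Mcl1 and Bcl2l1 were 1.74-fold (1.58 to 1.92) and 1.91-fold (1.50 to 2.46) higher. Of 23 basement membrane genes 1, fibronectin (Fn1), was at least 2-fold higher, at 2.06-fold with all barcodes and 1.24-fold without the mixed ones. Of 25 cell cycle genes none was 2-fold higher and 1, Cdk6, was 2-fold lower (0.460), while cyclin D1 (Ccnd1) was 1.92-fold higher (1.74 to 2.12). Of 17 immediate early genes 2 were at least 2-fold higher, Fosb (2.45, 1.95 to 3.11) and Rhob (2.03, 1.83 to 2.24). Of 18 NF-kappaB and cytokine genes Nfkbiz was 2-fold higher (2.07, 1.52 to 2.89; 1.99 without the mixed barcodes) and Vcam1 lower. Of 9 integrated stress response genes Atf3 reached 2.01 (1.60 to 2.54) with all barcodes and 1.87 without the mixed ones, and Atf4 was at 0.896 (0.777 to 1.04). Of 23 secreted angiocrine factors 2 were at least 2-fold higher, Gas6 and Igfbp6, and Igfbp6 was at 0.927 without the mixed barcodes.

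The pattern was compared in parts of the endothelium. Barcodes with at least 3 UMIs of 7 arterial genes were called arterial (419 in IR, 140 in CON), and others with at least 3 UMIs of 5 venous genes venous (114 in IR, 34 in CON). The rest numbered 1008 in IR and 295 in CON. Sizes of these sets are not compared, because several of the genes that define them differed. The median log2 ratio of the measured p53 targets was 1.27 in arterial, 1.12 in venous and 1.21 in other barcodes. Cdkn1a was 8.23-fold (7.21 to 9.44), 7.12-fold (5.25 to 9.89) and 7.03-fold (6.28 to 7.91) higher in arterial, venous and other barcodes. The Gdf15 level was 517 CPM in IR and 2.38 CPM in CON among arterial barcodes, and 408 CPM in IR and 17.1 CPM in CON among the rest. Ltc4s had 161 CPM in IR and 15.4 CPM in CON among arterial barcodes, and 332 CPM in IR and 10.2 CPM in CON among the rest. Capillary genes had medians of -0.45, -0.31 and -0.44 in arterial, venous and other barcodes, and fatty acid genes -0.43, 0.09 and -0.33, with 4 of 20 measured members 2-fold higher and none lower in venous ones. Venous sums were shallow, and 1314 of all 8747 genes measured there passed 2-fold higher and 716 lower. Ifit3 was at 0.845 (0.634 to 1.14) in arterial and 0.316 (0.233 to 0.430) in other barcodes, and Rsad2 at 0.592 (0.475 to 0.741) and 0.372 (0.299 to 0.463). Venous barcodes in CON held 1 UMI of Rsad2 and 3 of Ifit3, too few to compare. The whole type I interferon list had medians of -0.19 in arterial, 0.29 in venous and -0.33 in other barcodes, and in venous ones 5 of 28 measured members were 2-fold higher and 1 lower. Differences between the parts were not tested.

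Some differences ran across whole classes of transcripts. All 13 mitochondrially encoded protein genes were higher, with a median log2 ratio of 0.46, and 2 of them at least 2-fold. mt-Nd6, the one protein gene on the light strand, was 4.55-fold higher (3.60 to 5.82), and in B cell barcodes it was 3.14-fold higher (1.73 to 5.70). mt-Nd4l was 2.15-fold higher (2.02 to 2.30), and 2.52-fold in B cell barcodes (2.07 to 3.07). The median mitochondrial share per barcode was 3.93% in IR and 3.30% in CON. The nuclear RNA Malat1 was 1.76-fold higher (1.74 to 1.79), and 1.36-fold in B cell barcodes (1.31 to 1.41). Of 90 measured ribosomal protein genes 73 had an interval under 1 (median -0.27), and of 83 nuclear genes of oxidative phosphorylation 34 had (median -0.12). These genes are abundant, and the second share is near the 35.4% seen in all genes of highest level. When measured genes were divided into 5 equal bins by the length of the gene, the median log2 ratio was -0.14 in the shortest bin and 0.24 in the longest. At 56 days it was 0.27 in the shortest bin and -0.28 in the longest. The share of genes at least 2-fold higher was 2.99% in the shortest and 4.49% in the longest bin. The part of the mitochondrial share and of RNA quality in these class-wide values was not tested.

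At 56 days, 476 IR and 761 CON barcodes met the same rule. Of 8624 measured genes 269 reached 2-fold higher (3.12%) and 217 reached 2-fold lower (2.52%). The p53 arrest and feedback genes had a median log2 ratio of 0.98 with 7 of 14 at least 2-fold higher, the apoptosis genes 0.75 with 4 of 9, the metabolism and repair genes 0.64 with 6 of 15, and the secreted and surface genes 0.72 with 4 of 10. Cdkn1a had 1415 CPM in IR and 158 CPM in CON (8.93, 8.06 to 9.92). Phlda3 had 547 CPM in IR and 131 CPM in CON at 24 hours (4.17, 3.66 to 4.76), and 472 CPM in IR and 45.4 CPM in CON at 56 days (10.4, 8.59 to 12.7). Bax was 4.59-fold higher at 56 days (4.15 to 5.10). Other targets had ratios nearer to 1 or under it at 56 days: Mdm4 was at 0.772 (0.622 to 0.954), Ccng1 at 2.48 (1.93 to 3.20), Mdm2 at 2.59 (2.01 to 3.34), Rev3l at 0.567 (0.400 to 0.793) and Btg2, an antiproliferative factor that was 1.94-fold higher at 24 hours (1.78 to 2.11), at 0.832 (0.749 to 0.924). Ltc4s, with 459.7 CPM in IR and 13.5 CPM in CON, was 34.0-fold higher at 56 days. Among genes lower at 24 hours, Car4 was lower at 56 days as well (0.187, 0.139 to 0.248), and Lrg1 was at 0.971. Type I interferon and class I genes had positive medians at 56 days, 0.36 and 0.34, and interferon gamma genes a negative one, -0.27, while Irf7 was 3.20-fold (2.64 to 3.90) and Isg15 2.55-fold (2.24 to 2.89) higher. The clock genes had a median of -0.12. Each time had its own IR and CON libraries, and differences between the times were not tested.

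**Figure D5:**
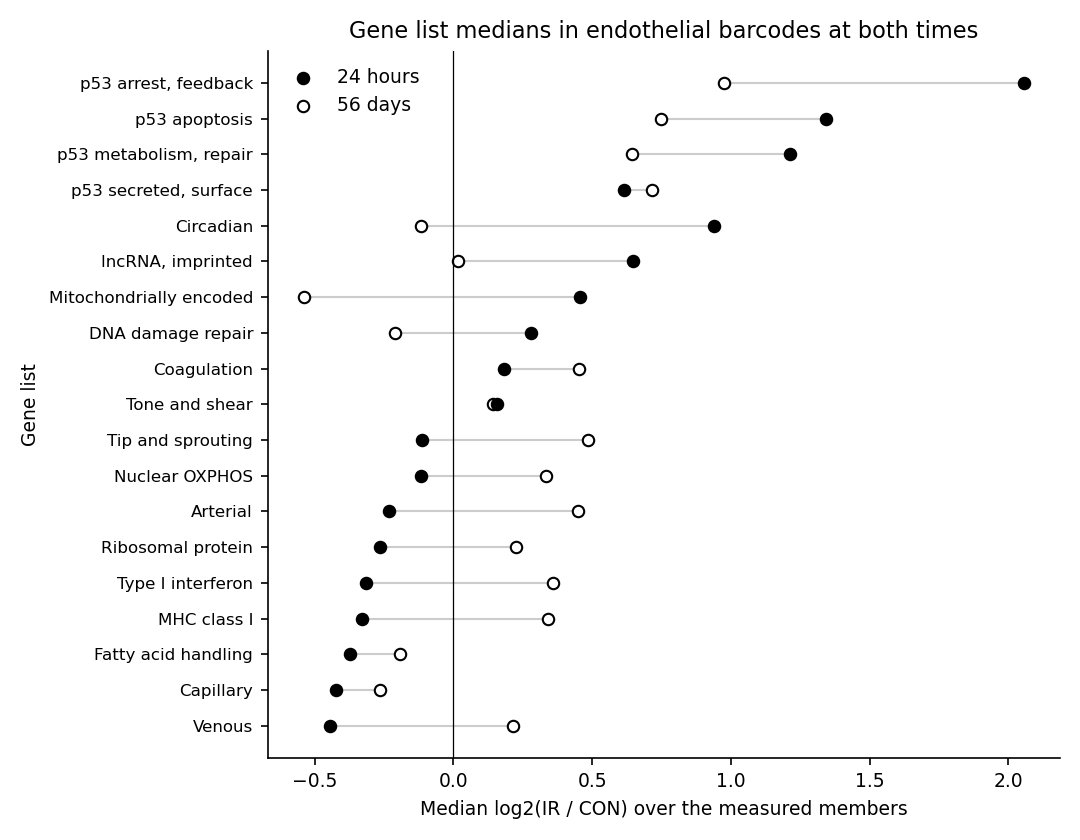
Median log2 ratio of IR over CON for 19 gene lists in endothelial barcodes, over the members measured at each time, at 24 hours (filled) and 56 days (open). The 4 p53 lists lie right of 0 at both times, whereas the type I interferon, MHC class I, arterial and venous lists lie left of 0 at 24 hours and right of it at 56 days.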

How the data were processed

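UMI counts were used as the authors deposited them, written by Cell Ranger 5.0.0, per the file headers, on build mm10, per the submitters' processing notes. No deposited barcode had under 500 UMIs. The 4 libraries, 1 per group, listed 32285 genes each, and 24-hour endothelial depth is given in the report. Gene coordinates came from GENCODE on the same build.

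UMIs were summed per library over the selected barcodes and divided by their total (CPM). Ratios carry exact conditional binomial intervals, levels exact Poisson intervals and shares exact (Clopper-Pearson) binomial intervals, all at 95%. Log2 ratios had 0.5 UMIs added, and against 0 UMIs a floor of 3 UMIs set the call. No doublet caller was run and ambient RNA was not removed, so mixed barcodes remain. The code was checked on simulated counts with known folds. Python 3.11.15, numpy 2.4.6, scipy 1.17.1 and pandas 2.3.3 were used.

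The members, the 34 lists and 11 check lists were chosen with earlier results of these data known. Named genes were the 15 furthest higher and 15 furthest lower by the interval bound nearest 1, leaving out the rule genes, markers of other cells, and genes of mitochondria, ribosomes, haemoglobin, immune receptors, Xist and the Y chromosome and predicted loci. Up to 4 list members in the direction of its median and 2 in the other were added, with Cdkn1a, Mdm2, Ccng1 and Phlda3. Others, such as Mdm4, Rev3l, Bbc3, Atm, Nos3 and genes ranked without mixed barcodes, were named after their values were seen. Symbols repeated in the gene table, 38 in all, were left out.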

Additional observations from a re-analysis of the deposited data

Results flagged for a closer look

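The 7 gene lists below stand out because their median log2 ratio of IR over CON had opposite signs at 24 hours and at 56 days, with both at least 0.2 from 0. With 1 library per group at each time the differences were not tested. The median at 24 hours minus that at 56 days was -0.67 for type I interferon genes, -0.67 for MHC class I genes, -0.68 for arterial genes and -0.66 for venous genes. It was 0.49 for DNA repair genes, -0.49 for ribosomal protein genes and 0.99 for the mitochondrially encoded genes. Over all measured genes the medians were 0.06 at 24 hours and 0.02 at 56 days. The shortest and longest bins of gene length also had medians of opposite sign at the 2 times, as given in the report.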

How the results depend on the processing

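Among 204 named genes none that was at least 2-fold different changed sign when any choice below was varied, other than leaving out mixed or top barcodes, and each setting kept the sign of 33 to 37 of 37 list medians. The counts of genes at least 2-fold higher and lower moved with thinning and with the filter on low levels. They were 604 and 259 with barcodes thinned to 1000 UMIs, 480 and 102 at a mean of at least 5 CPM, and 115 and 24 at a mean of at least 30 CPM. Without barcodes holding a UMI of Rgs5, Pdgfrb, Acta2 or Myh11, 94 genes were lower, and the venous median was -0.86. The other alternatives were median-of-ratios scaling, equal weight per barcode, at least 6 marker UMIs, at most 10% mitochondrial UMIs, leaving out the 5% deepest barcodes, and totals without mitochondrial, ribosomal, haemoglobin and myofibre genes. They kept both counts within 1.5 times. Leaving out mixed barcodes, chosen after the data were seen, turned Col11a1, Kera and Col22a1 to -1.69 (log2), all with 0 UMIs left in both libraries, Igfbp6 to -0.25 and Tnmd to -0.11. Leaving out each gene's top barcode in each library, likewise chosen later, turned Gkn3 to 1.00, and no other named gene that was at least 2-fold different changed sign. Thinning left 134 of the 204 gene ratios inside their counting interval, and 198 of 204 with the same sign; the causes of the other moves were not tested. Counts of a few UMIs in CON limit the largest folds. No paired analysis was possible because each group has 1 library.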
